A study of Mus musculus with 20 samples.

Results

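The early decay interval is the comparison of 8 of the 20 libraries of the series: mouse embryonic stem cells (ESCs) with and without Cnot3, taken at 0 and at 4 h of actinomycin D, an inhibitor of transcription. The libraries were chosen by their labelled treatment and time, 2 biological replicates in each of 4 groups. The question is which transcripts lose less, or more, of their level over the first 4 h when Cnot3 is deleted. It is read from an interaction, the log2 change from 0 to 4 h in deleted cells minus the same change in undeleted cells, so a positive value means less relative loss without Cnot3.

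All 8 libraries came from Cnot3 cKO ESCs, conditional knockout cells labelled with the strain C57BL/6. Undeleted cells (WT below) had received the vehicle DMSO, and deleted cells (KO below) 0.1 µM 4-hydroxytamoxifen (4OHT). Actinomycin D at 10 µg/ml was added on day 2 of these treatments, in both arms. The recombinase that 4OHT acts on, and its promoter, were not named in the labels. An effect of 4OHT apart from the deletion cannot be told apart from the loss of Cnot3 in this design. Other libraries of the series, of 8 h of actinomycin D and of total RNA on day 3, are used below only for values set beside those of the early interval.

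CCR4-NOT is the large complex that removes poly(A) tails from mRNAs in the cytoplasm, the step that commonly starts their decay. Cnot1 is its scaffold, Cnot6, Cnot6l, Cnot7 and Cnot8 are its deadenylases, and Cnot2 and Cnot3 form a module that helps dock proteins which bring the complex to particular mRNAs. Such proteins include Pumilio, which reads a short element in 3′ UTRs, the Zfp36 family, which reads AU-rich elements, and the GW182 proteins of the microRNA pathway.

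Levels are given in CPM, the counts of a gene relative to the counts of its library, after TMM scaling, which sets the average gene to no change. Total mRNA falls under actinomycin D, so every level is relative to the average transcript of the same library, and a stable mRNA can stand above 100% of its starting level. Libraries held 14513891 to 28318919 gene counts. The 2 replicates of a group differed by 2.27 to 4.39 times the counting variance (chi-square per degree of freedom). Markers of ESCs were present in all 8 libraries (summed levels of 6 genes from 2408 to 3990 CPM). Summed feeder fibroblast markers were at 67.2 and 67.59 CPM in WT and 112.8 and 107.2 in KO at 0 h. At 4 h they were at 80.61 and 84.61 in WT and 115.5 and 119.7 in KO. The fibroblast gene Lum was at 0 in all groups, and Dcn in all but KO at 4 h. Summed primitive endoderm markers were at 1750 and 1733 CPM in WT and 1636 and 1600 in KO at 0 h. At 4 h they were at 2499 and 2511 in WT and 1927 and 1939 in KO. All marker sums are CPM of library totals, without TMM scaling. Summed trophectoderm markers were at 251.5 and 270.7 CPM in WT and 485 and 481.6 in KO at 0 h. Their part in the results was not tested.

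Cnot3 (ENSMUSG00000035632) checks the labels. Its level was 112 and 114 CPM in WT at 0 h and 113 and 111 at 4 h, and 11.9 and 12.4 CPM in KO at 0 h and 9.44 and 11.8 at 4 h. The KO libraries were thus far below the WT libraries at both times. The mRNA that remained had an interaction of -0.22 ± 0.11 (SE), which did not pass (edgeR adjusted p = 0.151). Its exons overlap those of Leng1 on the opposite strand.

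Over the first 4 h the loss of many short-lived mRNAs was smaller in KO than in WT. Among genes meeting a rule on adjusted p, level and non-overlapping changes, those gaining most in relative stability included Cited2, Lefty1, Srfbp1, Stk17b and Cdt1. Their interactions were 2.81, 2.53, 2.43, 2.43 and 2.26 on the log2 scale. Of 15626 genes tested, 2024 had a higher interaction (13.0%) and 1819 a lower one (11.6%) by edgeR's quasi-likelihood test with Benjamini-Hochberg adjustment at 0.05. The 2 directions differed in size: 341 of the higher calls reached a log2 of 1 (2.18%), against 27 of the lower calls at -1 (0.173%). The median over all genes was -0.04.

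Higher calls were for the most part genes lost in both arms and lost less in KO. In the median gene called higher, 44.9% of the starting level was left at 4 h in WT and 70.7% in KO. Among the 341 with a log2 of at least 1, the medians were 19.0% and 52.7%. Of these 341, 229 had under 25% left in WT, 180 had at least 50% left in KO, and 68 met both. Each arm gives 4 differences between a library at 4 h and a library at 0 h. All 4 of KO lay above all 4 of WT in 2018 of the 2024 higher calls. This arrangement was found in 21.7% of all genes tested, these calls included. It is read from the same libraries as the calls, so it is no separate support for them.

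Within each arm, WT mRNAs rose in 5447 genes (34.9%) and fell in 5689 (36.4%), and KO mRNAs rose in 4737 (30.3%) and fell in 5238 (33.5%), all relative to the average. The WT and KO arms share no library. Their changes correlated across the 15626 genes (Pearson r = 0.875, Spearman rho = 0.865, as a description, since genes are not independent replicates and the libraries of a group share their scaling). The spread of the changes was narrower in KO, with an SD across genes of 0.901 against 1.09 in WT. Of the higher calls, 1411 fell in both arms, 421 fell in WT and did not pass in KO, and 73 fell in WT and rose in KO. Of the lower calls, 1202 rose in both arms, 278 rose in WT and did not pass in KO, 163 fell in both, and 59 rose in WT and fell in KO.

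**Figure D1:**
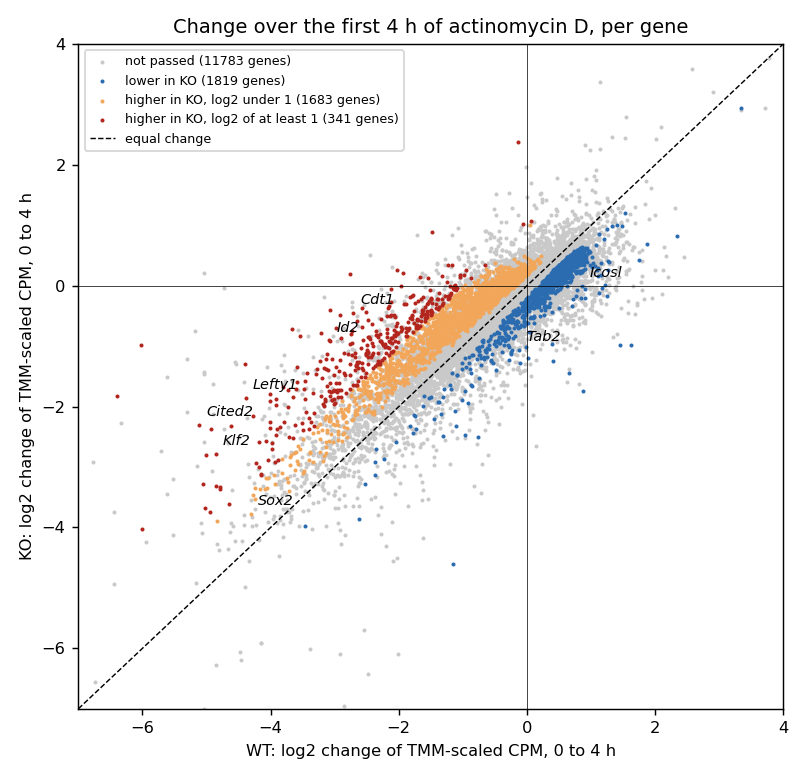
Log2 change of the level from 0 to 4 h of actinomycin D in WT (horizontal axis) and KO (vertical axis), 1 point per gene tested, with the dashed line where both are equal (18 genes lie outside the drawn range). Genes called higher with a log2 of at least 1 (red, 341 genes) lie above the line where WT lost most, and genes called lower (blue, 1819) lie just under it, most of them where WT rose.

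The calls did not cover all unstable mRNAs. In WT, 1354 genes fell by at least 2 on the log2 scale, with a median of 15.8% left, against 23.4% in KO. Of these, 485 were called higher in the interaction, 9 lower, and 860 did not pass. The genes were chosen on the WT change, which is also a part of the interaction. That choice by itself favours a larger share left in KO and higher calls, so these values are a description only. The pluripotency factor Sox2 is an example of a rapidly lost mRNA with a modest difference: 727 and 721 CPM in WT at 0 h became 38.4 and 34.9, and 509.9 and 551 CPM in KO became 39.02 and 38.5. KO was well below WT at 0 h, and the arms all but met at 4 h. The interaction was 0.53 ± 0.07 (edgeR adjusted p = 1.24e-06), with 5.06% left in WT and 7.31% in KO.

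The counts moved with the scaling and with single libraries. Scaled to library totals 2622 genes were higher and 691 lower, with DESeq2 1682 and 907, scaled to ribosomal protein mRNAs 3818 and 145, and scaled to mitochondrially encoded mRNAs 254 and 0, against 2024 and 1819. Leaving out 1 library gave 1181 lower calls without KO 0 h replicate 2, 1092 without WT 0 h replicate 1, 985 without WT 0 h replicate 2, 895 without KO 4 h replicate 1 and 1143 without KO 4 h replicate 2. The higher calls ranged from 1656 to 2024 over the 8 libraries left out. The numbers of higher and of lower calls thus both moved with the reference. In proportion, lower calls, most of them small, moved more with the reference and with single libraries than higher calls did. The 11 of the 12 highest interactions described below passed under each of 18 alternatives.

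Among the 12 highest interactions (named by a rule on adjusted p, level and non-overlapping changes), the mRNAs of Spata5, Cdt1 and Srfbp1 were mostly kept in KO while WT lost most of theirs. Cdt1 encodes the factor that loads the MCM helicase at replication origins (ENSMUSG00000006585, chr8:122568015-122573554, GRCm38). Its level went from 201 and 206 CPM to 31.6 and 30.5 in WT and from 222 and 233 CPM to 169 and 163 in KO. All KO libraries at 4 h stood far above the WT libraries of that time, whereas at 0 h the levels of the arms were close. WT kept 15.3% and KO 72.99%, an interaction of 2.26 ± 0.07 (SE, edgeR adjusted p = 1.70e-21). Srfbp1, a cofactor of the serum response factor, went from 88.1 and 88.96 CPM to 10.95 and 12.5 in WT and from 117 and 122 to 85.1 and 86.4 in KO, with 13.3% and 71.6% left. Spata5, an AAA-type ATPase of ribosome maturation, went from 74.7 and 77.4 CPM to 12.6 and 12.9 in WT and from 144 and 141 to 111 and 111 in KO. In both genes the KO libraries were above the WT libraries at 0 h and more so at 4 h, without overlap. At 8 h of actinomycin D KO still held 65.5% of its starting Spata5 mRNA and 50.9% of its Cdt1 mRNA, against 15.2% and 7.16% in WT.

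Cited2, a transcriptional co-regulator that binds CBP and p300, had the highest interaction of the 12. Its level fell from 20.2 and 22.5 CPM to 0.454 and 0.773 in WT and from 15.5 and 18.1 to 3.62 and 3.01 in KO, so that 2.87% was left in WT and 19.7% in KO. The WT libraries at 4 h were close to the lower end of what was counted. Their spread makes the interaction of 2.81 ± 0.30 (edgeR adjusted p = 7.00e-09) the least precise of the 12. By 8 h the arms were closer, with 7.20% of the Cited2 mRNA left in WT and 10.8% in KO. Stk17b, a pro-apoptotic kinase of the DAPK family, started at 33.7 and 36.4 CPM in WT and 36.9 and 40.3 in KO and ended at 3.79 and 3.76 and 23.4 and 21.2. The arms overlapped in neither time, yet were near each other at 0 h and far apart at 4 h (10.8% and 57.7% left).

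Pelo, which rescues stalled ribosomes, went from 23.2 and 20.6 CPM to 1.51 and 2.11 in WT and from 23.4 and 24.9 to 9.85 and 9.16 in KO. Its KO libraries were slightly above the WT libraries at 0 h and far above them at 4 h. Topors, a ubiquitin and SUMO ligase, kept 6.2% in WT and 28.9% in KO, and Ddx28, an RNA helicase of the mitochondrial ribosome, 7.11% and 31.4%. The exons of Topors, Spata5 and Ddx28 overlap those of genes on the opposite strand (Smim27, Nudt6 and Dus2). Strand use in counting was not stated, so their values are uncertain to that extent. The same limit holds for Orc1, Cnot1, Cnot2, Cnot7, Cnot9, Edc3, Zfp296, Zfp143, Uhmk1 and Ago2, described further below. By 8 h the share left in KO had come down to 15.4% for Pelo and 12.4% for Topors, against 7.07% and 6.31% in WT.

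**Figure D2:**
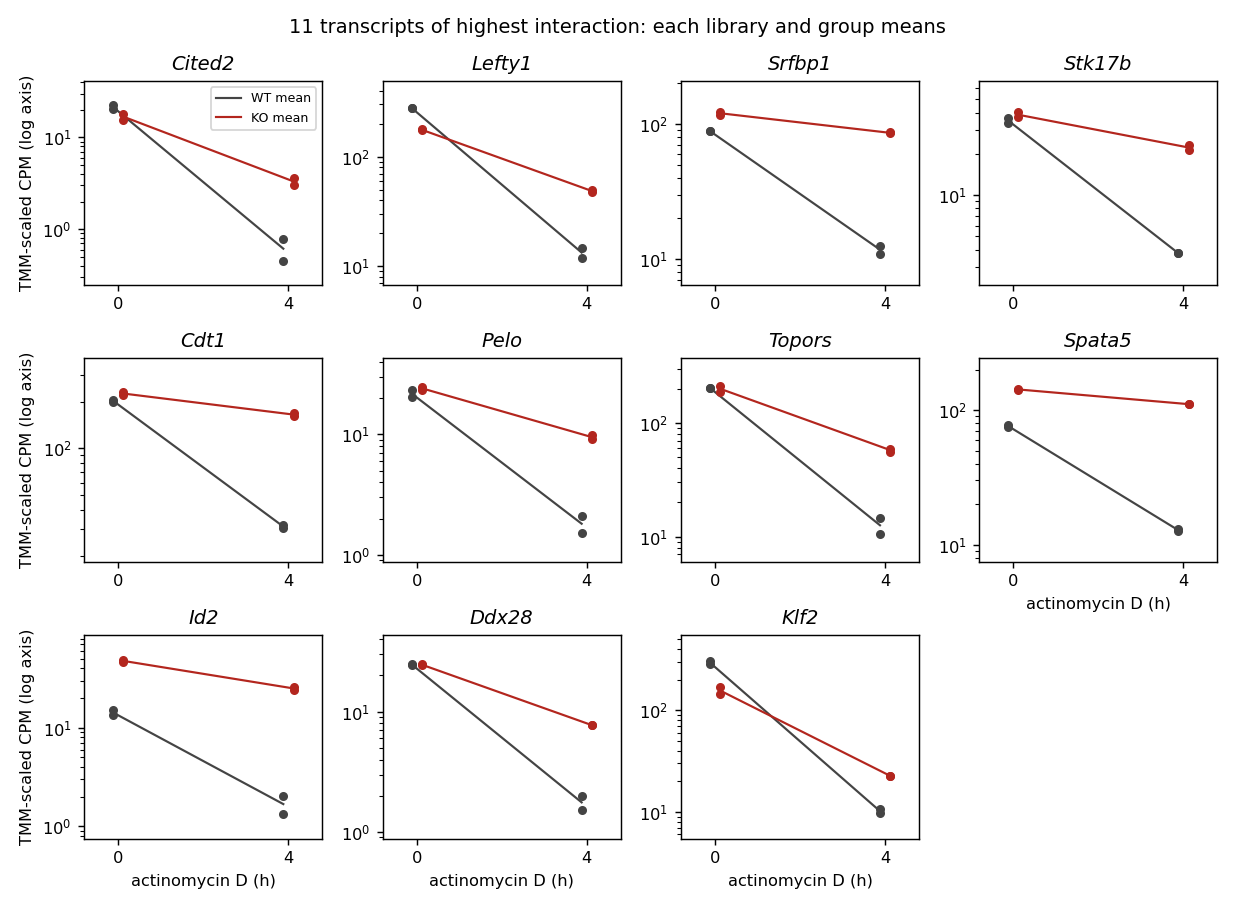
Level (TMM-scaled CPM, log axis) at 0 and 4 h of actinomycin D, in WT (grey) and KO (red). Panels show 11 of the 12 transcripts of highest interaction under the rule on adjusted p, level and non-overlapping changes. Points are single libraries and lines join the means of 2. In each panel the line of KO is flatter than that of WT, as for Cdt1, with 15.3% left in WT and 73.0% in KO.

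Pluripotency factors held the largest number of higher calls among the developmental lists tested. Of 31 tested, 17 were higher, 4 lower and 10 did not pass, with a median of 0.32 against -0.04 for all genes. These counts, and those of the lists that follow, stand beside 13.0% higher and 11.6% lower over all genes. Klf2, a Krüppel-like factor of the naive state, fell from 283 and 308 CPM to 10.7 and 9.69 in WT and from 145 and 168 to 22.6 and 22.7 in KO. The order of the arms turned: KO was below WT at 0 h and above it at 4 h, without overlap at either time, and the interaction was 2.07 ± 0.11 (edgeR adjusted p = 3.12e-15). Klf4, its relative, fell from 279.5 and 285 CPM to 19.9 and 19.2 in WT and from 169 and 180.5 to 33.8 and 35.1 in KO, with the same turn. By 8 h 6.74% of the Klf4 mRNA was left in WT and 7.78% in KO. Zfp42, also known as Rex1, kept 20.5% in WT and 57.4% in KO at 4 h.

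Nanog, the homeobox factor of the naive state, and Utf1, a chromatin factor of ESCs, were more stable. Nanog stood at 491 and 499.6 CPM at 0 h and 478 and 477 at 4 h in WT and at 359 and 370.4 and 428 and 432 in KO. Its KO libraries were below the WT libraries at both times, by less at 4 h (0.29 ± 0.06, edgeR adjusted p = 0.000218). Utf1 fell from 452 and 452 CPM to 335 and 305 in WT and rose from 485 and 548 to 650.2 and 687 in KO, so the arms were close at 0 h and apart at 4 h. Its interaction was 0.87 ± 0.07 (edgeR adjusted p = 4.90e-10), and at 8 h 37.5% was left in WT and 126% in KO.

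In the Nodal pathway, which keeps ESCs and the epiblast responsive to patterning signals, 6 of 15 genes were higher and 0 lower (1 without KO 0 h replicate 2 or WT 0 h replicate 1), with a median of 0.21. Lefty1, a secreted antagonist of Nodal, fell from 279.6 and 279.6 CPM to 14.7 and 11.95 in WT and from 178 and 175 to 49.7 and 47.7 in KO. Here too KO began below WT and ended above it, with 4.77% left in WT and 27.6% in KO (interaction 2.53 ± 0.09, edgeR adjusted p = 2.07e-20). The ligand Nodal itself was lost almost wholly in both arms: 4.74 and 2.68 CPM remained of 108 and 104 in WT and 9.81 and 7.82 of 135 and 133 in KO. Its interaction was 0.94 ± 0.18. Lefty2, the close relative of Lefty1, was much more stable, with 86.2% left in WT and 107% in KO. The signal transducer Smad2 kept 26.99% in WT and 61.3% in KO.

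Id and BMP response genes had the highest median of the lists, 1.10, with 6 of 12 higher and 0 lower. Id proteins block basic helix-loop-helix factors and are induced by BMP signals. Id2 went from 13.5 and 15.04 CPM to 2.02 and 1.34 in WT and from 48.4 and 46.9 to 25.8 and 24.3 in KO. Its KO libraries were above the WT libraries before actinomycin D and by a wider ratio after it, an interaction of 2.16 ± 0.18 (edgeR adjusted p = 3.24e-11). Id1 went from 29.2 and 25.3 CPM to 9.94 and 6.18 in WT and from 69.6 and 76.2 to 57.1 and 62.5 in KO, and Id3 kept 9.08% in WT and 27.6% in KO. The level of Id1, Id2 and Id3 in KO against WT at 0 h was 1.42, 1.74 and 0.75 on the log2 scale. In the separate libraries of day 3 it was 1.88, 1.41 and 1.53, each past the threshold.

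Immediate early and other short-lived transcripts were higher in 20 of 48 and lower in 2 (median 0.40). The lower members were 0 without KO 4 h replicate 1, and 1 without KO 0 h replicate 2, WT 0 h replicate 2 or WT 4 h replicate 2. Mycn, a MYC family factor of ESCs, fell from 347 and 352 CPM to 23.5 and 22.8 in WT and from 171 and 178 to 40.8 and 48.5 in KO. Sgk1, a growth factor-induced kinase, fell from 283 and 307 CPM to 24.3 and 24.8 in WT and from 182 and 189 to 62.7 and 59.96 in KO. In both genes KO was the lower arm at 0 h and the higher arm at 4 h. Mcl1, the labile anti-apoptotic protein of the BCL2 family, began at like levels, 499 and 537 CPM in WT and 471 and 529 in KO, and ended at 95 and 86.8 and 229.9 and 235. Its arms overlapped at 0 h and did not at 4 h, with an interaction of 1.40 ± 0.07 (edgeR adjusted p = 8.71e-15).

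Targets of p53 were higher in 9 of 20 and lower in 3, a count that was 1 without KO 0 h replicate 1, WT 0 h replicate 1, WT 0 h replicate 2 or KO 4 h replicate 1. The median was 0.23, or 0.14 without WT 4 h replicate 2, and 6 were higher without KO 4 h replicate 2. The kinase Plk2 fell from 52.02 and 48.6 CPM to 7.02 and 5.41 in WT and from 202 and 206 to 51.7 and 54.1 in KO. Btg2, an anti-proliferative protein that binds the deadenylases, fell from 54.1 and 51.7 CPM to 11.7 and 11.7 in WT and from 188 and 180.3 to 64.4 and 66.04 in KO. Both stood several-fold higher in KO at each time, and the interactions were 1.06 ± 0.11 and 0.68 ± 0.09. Phlda3, a p53 target that dampens AKT signalling, went the other way and is among the 12 lowest under the naming rule (-0.79).

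Of 17 trophectoderm markers, 3 were higher (5 without KO 0 h replicate 2) and 0 lower, a share of 17.65% higher, near the 13.0% of all genes. The median of 0.20 moved with single libraries, to 0.07 without WT 4 h replicate 1, 0.36 without WT 4 h replicate 2, 0.34 without KO 0 h replicate 1 and 0.33 without WT 0 h replicate 1. Tfap2c, an AP-2 factor of trophectoderm and germ cells, fell from 119 and 123.3 CPM to 29.4 and 28.4 in WT and from 186 and 198 to 99.97 and 105 in KO. Ascl2, a placental helix-loop-helix factor, kept 32.3% in WT and 87.04% in KO, and Elf3, an epithelial ETS factor, 20.5% and 38.2%. All 3 were above WT in KO at 0 h and further above at 4 h. Fewer or more cells of a type and a change of RNA per cell cannot be told apart in such bulk samples. The ERK phosphatase Dusp4 kept 15.6% in WT and 46.2% in KO (1.58 ± 0.15), among 4 higher and 2 lower of 15 FGF and ERK feedback genes. Without KO 0 h replicate 2, WT 0 h replicate 1, WT 0 h replicate 2, KO 4 h replicate 1 or KO 4 h replicate 2, 1 of these was lower.

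Mitotic regulators were higher in 12 of 22 and lower in 1, with a median of 0.25. The median member had 84.8% of its starting level left in WT and 105.9% in KO. Plk1, the Polo kinase of mitotic entry, went from 236 and 230.3 CPM to 137 and 144 in WT and from 208 and 213 to 205 and 208 in KO. The kinase Aurka went from 197 and 204 CPM to 109 and 109.8 in WT and from 216 and 212 to 197 and 196 in KO. WT libraries at 4 h lay below all other libraries in both genes. By 8 h WT had 21.8% of its Plk1 mRNA and 30.8% of its Aurka mRNA left, against 82.7% and 94% in KO. The kinesin Cenpe (0.79 ± 0.07) and the centrosome kinase Nek2 (0.65 ± 0.07) were also called.

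Genes that license replication origins were higher in 8 of 18 and lower in 1. The median was 0.05, and ran from 0.01 without WT 4 h replicate 2 to 0.11 without KO 0 h replicate 2, with 0.08 without WT 0 h replicate 1, 0.09 without WT 4 h replicate 1 and 0.14 under library totals. The lower count was 2 without WT 4 h replicate 2 and 0 without any other library except KO 0 h replicate 1. Besides Cdt1, these included the origin recognition subunit Orc1 and its partner Cdc6. Orc1 went from 124 and 124 CPM to 63.9 and 60.7 in WT and from 156 and 157 to 148 and 145 in KO. Cdc6 went from 117 and 116 CPM to 34.4 and 32.6 in WT and from 96.7 and 99.5 to 52.7 and 52.3 in KO. The KO libraries at 4 h were above those of WT in both, although KO started higher for Orc1 and lower for Cdc6. Gins1, a subunit of the replicative helicase, was stable, with 96.6% left in WT and 129% in KO.

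Mediator subunits and general transcription factors were higher in 16 of 51 and lower in 6 (2 to 12 with 1 library left out). The list's median, -0.03, was near that of all genes, and its sign was not stable. It turned above 0 with 6 of the 8 libraries left out (0.01 to 0.06, all but KO 0 h replicate 1 and WT 4 h replicate 2), under library totals (0.06) and under both reference scalings. Among the members called higher, Med17 went from 121 and 122.8 CPM to 58.9 and 52.1 in WT and from 173 and 171 to 169 and 163 in KO. Gtf2b, the factor TFIIB that places RNA polymerase II at promoters, went from 41.7 and 41.9 CPM to 18.3 and 18.4 in WT and from 49.4 and 48.4 to 40.7 and 40.97 in KO. WT at 4 h was the lowest of the 4 groups in both genes, without overlap, with interactions of 1.09 ± 0.08 and 0.93 ± 0.09 (edgeR adjusted p = 3.42e-13 and 1.50e-09). At 8 h WT held 18.7% of Med17, 15.1% of Gtf2b and 11.9% of Med4, another Mediator subunit, and KO 89.9%, 72.4% and 62.7%. The number of lower members was 2 without KO 0 h replicate 2, WT 0 h replicate 2 or KO 4 h replicate 1, 3 without WT 0 h replicate 1 or WT 4 h replicate 1, and 12 without WT 4 h replicate 2.

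**Figure D3:**
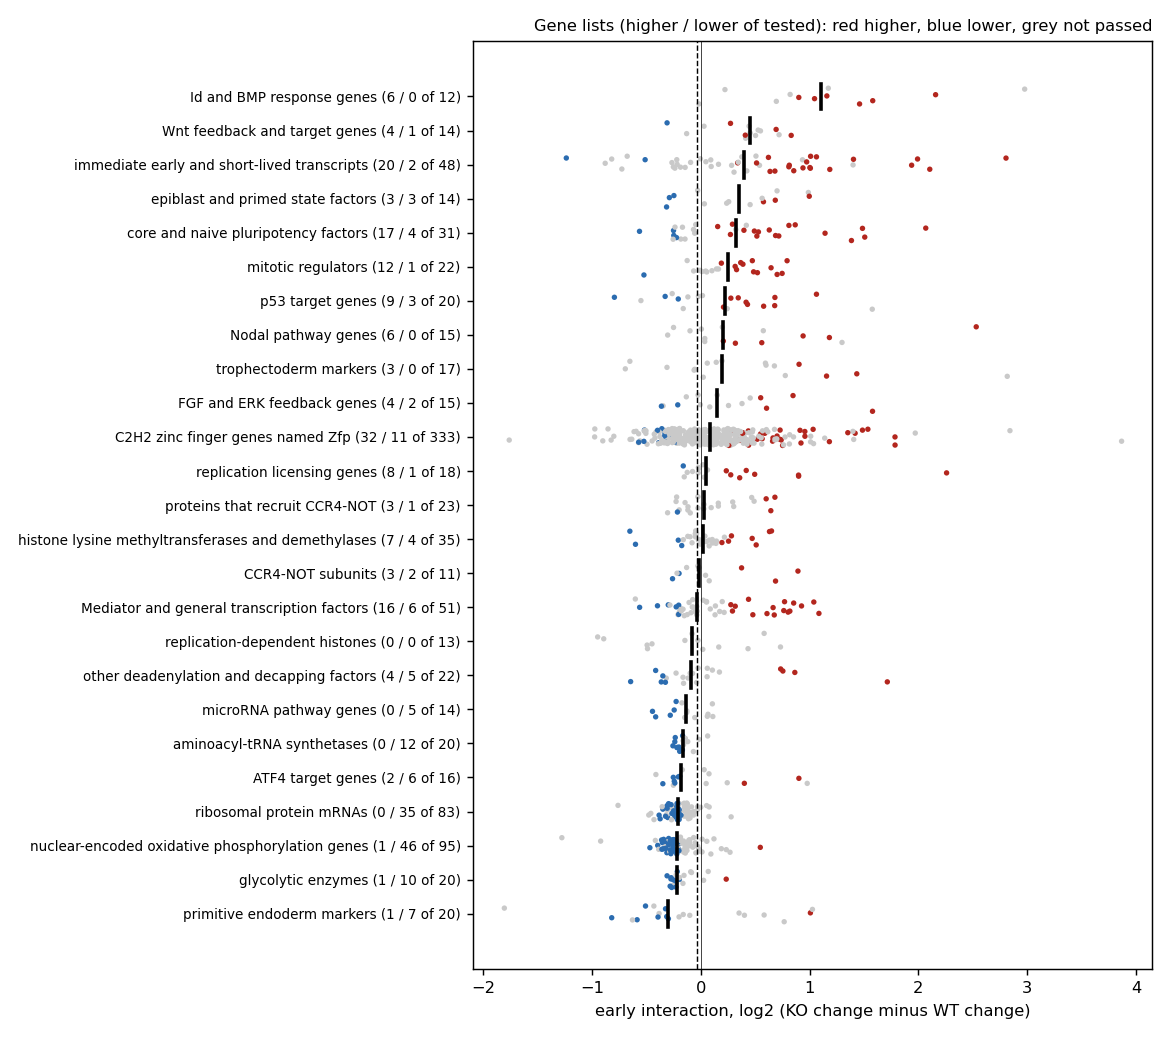
Early interaction (log2, horizontal axis) of each member of the gene lists with at least 10 tested members, 1 point per gene, with a black bar at the list's median and the dashed line at the median of all genes, -0.04. Labels give the members called higher (red) and lower (blue) of those tested. Id and BMP response genes have the highest median, 1.10, and lists of metabolism and translation lie narrowly below the dashed line.

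In the decay machinery itself, 3 of 11 CCR4-NOT subunits were higher and 2 lower (27.3% and 18.2%, against 13.0% and 11.6% of all genes). Cnot2, the partner of Cnot3 in its module, fell from 136 and 137 CPM to 54.4 and 58.5 in WT and from 162 and 169 to 129.7 and 125 in KO. KO exceeded WT at 0 h and by more at 4 h (interaction 0.89 ± 0.07, edgeR adjusted p = 1.99e-11). Cnot4, a ubiquitin ligase bound to the complex, kept 21.3% in WT and 34.4% in KO, and the deadenylase Cnot8 60.7% and 78.8%. The scaffold Cnot1 rose from 672 and 649 CPM to 709 and 748 in WT and fell from 421 and 435 to 392 and 397 in KO (interaction -0.26), a direction that turned to 0.12 when scaled to mitochondrial mRNAs. Cnot10 was lower by a small margin (-0.20, edgeR adjusted p = 0.0255). Its call was lost without any 1 library other than WT 4 h replicate 2 (adjusted p from 0.0525 to 0.213), and also under RLE scaling (0.0685), library totals (0.247) and DESeq2 (0.0867). Its sign turned when scaled to ribosomal protein mRNAs (0.01) or mitochondrial mRNAs (0.17). Cnot6, Cnot6l, Cnot7, Cnot9 and Cnot11 did not pass, with interactions of -0.13, 0.08, -0.02, -0.03 and 0.04. Without WT 4 h replicate 2, Cnot6 passed as lower (-0.19, edgeR adjusted p = 0.0439).

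Of 22 other deadenylation and decapping factors, 4 were higher and 5 lower, 18.2% and 22.7% (median -0.09, turning above 0 under library totals at 0.01 and under both reference scalings). Noct, a relative of the CCR4 deadenylases, fell from 131 and 134 CPM to 15.4 and 15.4 in WT and from 102 and 118 to 40.5 and 43.4 in KO. Dcp2, the enzyme that removes the cap, moved oppositely, from 247 and 229 CPM to 299.8 and 285 in WT and from 120.5 and 126 to 95.6 and 98.1 in KO. For Noct the KO libraries were below WT at 0 h and above at 4 h, and for Dcp2 they were the lower arm at both times (1.71 ± 0.10 and -0.64 ± 0.07). Its activators Dcp1a (0.75 ± 0.09) and Edc3 (0.73 ± 0.08) were higher. Among 23 proteins that recruit CCR4-NOT, Btg2 and the m6A reader Ythdf2 (0.60 ± 0.09) were among 3 higher members, a share of 13.0% that equals that of all genes. Of the 23, 1 was lower, which became 2 without WT 4 h replicate 2 and 0 without any other library. The median of 0.03 turned to -0.04 without KO 0 h replicate 1 and lay between 0.00 and 0.06 without the others.

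C2H2 zinc finger genes encode a large family of DNA-binding proteins. They had a smaller share of calls in either direction than all genes together, although most of these mRNAs were lost fast. Of 333 named Zfp and tested, 32 were higher, which is 9.61% against 13.0% of all genes. The lower members were 11, which is 3.30% against 11.6%. Their median interaction of 0.08 was above the -0.04 of all genes (0.05 without WT 4 h replicate 2 and 0.17 with library totals). Their median share left was 29.1% in WT and 31.7% in KO. Scaled to ribosomal protein mRNAs, 78 of the 333 were higher, beside 3818 of all 15626 genes. Single members were called with larger values: Zfp296, a partner of Klf4, fell from 74 and 75.9 CPM to 2.42 and 2.06 in WT and from 45.9 and 48.4 to 4.44 and 5.55 in KO. Zfp830 kept 7.24% in WT and 20.8% in KO, and Zfp143, an activator bound at many promoters, 18.8% and 49.8%.

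Genes with a lower interaction fell into a small set with sizeable differences and a large set of abundant, stable mRNAs. Genes were named by the same rule on adjusted p, level and non-overlapping changes. The 12 lowest under it were Tab2, Usf3, F2rl1, Tmem28, D17Wsu92e, Icosl, Uhmk1, Cacfd1, Traf3, Zfand2a, Phlda3 and Bend3. Their values lay between -0.94 and -0.77. Lower calls that the rule left out went further, 27 of them to -1 or below. Tab2, an adaptor of the kinase TAK1, went from 88.4 and 86.7 CPM to 79.8 and 80.6 in WT and from 58.5 and 57.3 to 29.1 and 25.9 in KO. Traf3, an adaptor of TNF receptor and antiviral signalling, went from 32.3 and 27.1 CPM to 31.8 and 29.4 in WT and from 33.2 and 27.7 to 17.6 and 18.5 in KO. In both genes the KO libraries at 4 h were the lowest, and the arms overlapped at 0 h for Traf3 but not for Tab2. Their interactions were -0.94 ± 0.08 and -0.81 ± 0.13 (edgeR adjusted p = 6.02e-11 and 1.89e-05).

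The mRNA of D17Wsu92e, listed under that name, rose from 180.1 and 179 CPM to 259.6 and 249 in WT and fell from 124 and 119.95 to 93.6 and 94.4 in KO. Icosl, a ligand of T cell costimulation, rose from 24.3 and 22.2 CPM to 44.7 and 40.03 in WT and was at 13.8 and 13.7 and 14.4 and 12.8 in KO, with 182% and 98.8% of the starting level. The KO libraries were below WT at both times in both genes and further below at 4 h. F2rl1, a protease-activated receptor, kept 49.7% in WT and 26.9% in KO, and Uhmk1, a kinase, 85.4% and 47.3%. The histone demethylase Kdm4a (-0.65 ± 0.08) and the Argonaute protein Ago2 (-0.44 ± 0.08) were also lower. The 12 lowest genes stayed negative under all scalings, and none of them passed when scaled to mitochondrial mRNAs.

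Basement membrane chains were among the lower primitive endoderm markers, of which 7 of 20 were lower and 1 higher (0 without KO 0 h replicate 1, KO 0 h replicate 2, WT 0 h replicate 2 or KO 4 h replicate 2; median -0.31, or 0.06 when scaled to mitochondrial mRNAs). Col4a1 went from 104 and 113 CPM to 197 and 198 in WT and from 129 and 133 to 157 and 178 in KO, and Col4a2 from 38.98 and 42.4 to 72.3 and 71.97 and from 56.7 and 56.05 to 62.3 and 71.9. KO began above WT in both and ended below it, for Col4a2 by a hair in 1 library. The laminin chain Lamc1 went from 696 and 669 CPM to 1153 and 1122 in WT and from 373 and 369 to 476 and 465 in KO, with KO lower at both times. Interactions were -0.51 ± 0.08, -0.58 ± 0.09 and -0.39 ± 0.06. Col4a1 and Col4a2 lie head to head on opposite strands, and exons of theirs overlap in the annotation.

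Among abundant stable mRNAs, 35 of 83 ribosomal protein mRNAs were lower and 0 higher, as were 46 and 1 of 95 nuclear genes of oxidative phosphorylation, 12 and 0 of 20 aminoacyl-tRNA synthetases and 10 and 1 of 20 glycolytic enzymes, against 11.6% lower over all genes. With library totals the lower members of these lists numbered 8, 17, 2 and 3, with DESeq2 19, 27, 7 and 6, and under both reference scalings 0. Their medians were -0.21, -0.22, -0.17 and -0.22, which became 0.00, -0.01, 0.04 and -0.01 when scaled to ribosomal protein mRNAs and 0.16, 0.15, 0.20 and 0.15 when scaled to mitochondrial mRNAs. Rplp0, of the ribosomal stalk, rose from 1037 and 1035 CPM to 1863 and 1814 in WT and from 754 and 747 to 1084 and 1122 in KO. Both arms rose relative to the average, WT by more, with KO below WT at both times (-0.27 ± 0.05). The synthetase Eprs (-0.23 ± 0.05), pyruvate kinase Pkm (-0.27 ± 0.05) and the ATP synthase subunit Atp5b (-0.25 ± 0.05) did likewise, and the sign of all 4 turned when scaled to mitochondrial mRNAs. Without KO 4 h replicate 1 the 4 lists had 9, 16, 2 and 5 lower members. The ribosomal count was 20, 23 and 18 without KO 0 h replicate 1, WT 0 h replicate 1 and WT 0 h replicate 2, and that of oxidative phosphorylation 29, 28 and 24 without KO 0 h replicate 2, WT 0 h replicate 1 and WT 0 h replicate 2. Synthetases had 5, 6, 4, 3 and 5 lower members without KO 0 h replicate 1, KO 0 h replicate 2, WT 0 h replicate 1, WT 0 h replicate 2 and KO 4 h replicate 2, and glycolytic enzymes 4 and 5 without KO 0 h replicate 1 and WT 0 h replicate 1. Under RLE scaling 7 synthetases were lower.

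Higher calls were more frequent among mRNAs with a Pumilio element in the 3′ UTR. The element searched was TGTANATA on the sense strand, in the 3′ UTR of 1 transcript per gene from GENCODE M21 (the longest coding sequence). It occurred in 23.3% of 13940 3′ UTRs of tested genes, in 30.7% of those called higher with a log2 of at least 1, in 36.2% of the other higher calls and in 18.7% of the lower calls. Its reverse, ATANATGT, which has the same base composition, occurred in 17.7%, 17.8%, 23.6% and 15.5%. Genes called higher with a log2 under 1 also had longer 3′ UTRs, with a median of 1236 bases against 930. Within 3′ UTRs of 1 to 500 bases, 24.7% of 283 genes with the element were called higher and 9.32% of 4165 without it. The shares were 25.7% and 13.4% at 501 to 1000 bases, 22.5% and 14% at 1001 to 2000, 20.2% and 13.5% at 2001 to 4000, and 17.2% and 13.5% above. Among genes that fell by at least 2 (log2) in WT, however, the element was as frequent in those whose interaction did not pass (31.2% of 714) as in those called higher with a log2 of at least 1 (31.8% of 220). Its reverse was in 24.8% and 17.3% of these. Median 3′ UTR length was 1306 bases where the interaction did not pass and 908 where it was higher. Per kilobase of 3′ UTR, in the same order, the element was at 0.2794 and 0.3335 and its reverse at 0.1927 and 0.1778. These are descriptions of the annotation, with no test, and a match of letters is not a bound site.

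**Figure D4:**
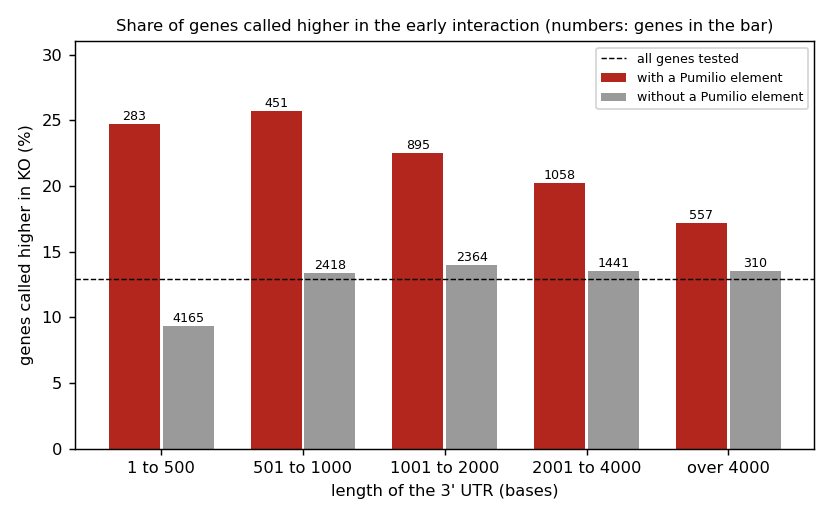
Share of genes called higher in the early interaction (percent, vertical axis) with (red) and without (grey) a Pumilio element, in 5 classes of 3′ UTR length, with the number of genes above each bar and the dashed line at the share over all genes tested, 13.0%. The red bar is taller in each class, by most at 1 to 500 bases (24.7% against 9.32%).

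Elements of this kind were present in the 3′ UTRs of several genes described above. They are shown because the mRNAs were called higher, whether mostly kept in KO (Cdt1) or mostly lost there too (Klf2 and Mycn). Each line gives the base of the 3′ UTR at which the element starts, the position on GRCm38 and the sequence of the transcript from 5′ to 3′, with the element in capitals and 10 bases on either side.
Cdt1, base 362 of 474 (chr8:122573006-122573033, plus strand): ttgggccttcTGTAAATAtgtgaagtgt
Klf2, base 319 of 737 (chr8:72321228-72321255, plus strand): tttataatatTGTATATAagactatgac
Stk17b, base 1338 of 1982 (chr1:53756133-53756160, minus strand): tacaggtataTGTATATAtgtattgata
Mycn, base 395 of 913 (chr12:12936594-12936621, minus strand): ggaacacttgTGTAAATAccattgatac
Mycn, base 834 of 913 (chr12:12936155-12936182, minus strand): ttcttcaaaaTGTATATAtttagtgctg
Mcl1, base 712 of 2353 (chr3:95661525-95661552, plus strand): ctgtaaaaatTGTATATAtttttacaga
Gtf2b, base 51 of 277 (chr3:142783370-142783397, plus strand): tatggaacttTGTACATAgccacacagt
Gtf2b, base 145 of 277 (chr3:142783464-142783491, plus strand): gtcttctgtaTGTATATActagtgcaac
Med4, base 177 of 479 (chr14:73518233-73518260, plus strand): agtgtttggtTGTACATAgcagccctgg
Med4, base 454 of 479 (chr14:73518510-73518537, plus strand): ctgtaatttgTGTAAATAaacttggttt
Cited2, Lefty1, Id2, Pelo, Topors, Spata5 and Ddx28, also among the 12 highest, had 0 such elements in the 3′ UTR searched, and Srfbp1 and Sox2, the latter with its modest interaction, had 1 each (not shown).

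Other features of the transcripts were counted in the same classes. The core of AU-rich elements, ATTTA, occurred in 64.3% of all 3′ UTRs, 68.4% of those called higher with a log2 of at least 1, 76.0% of the other higher calls and 62.2% of the lower calls. The complement of the seed shared by the ESC microRNAs of the miR-290 cluster, GCACTT, occurred in 29.4%, 32.5%, 38.5% and 24.7%. It pairs with bases 2 to 7 of miR-294-3p, a member of that cluster, shown here with its seed (bases 2 to 8) in capitals as listed by RefSeq.
miR-294-3p: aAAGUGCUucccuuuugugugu
Among genes that fell by at least 2 in WT, both motifs were more frequent where the interaction did not pass than where it was higher with a log2 of at least 1: ATTTA in 77.7% against 70.0%, and GCACTT in 41.6% against 33.2%. The 3′ UTRs of the former were longer, with a median of 1306 bases against 908. Per kilobase of 3′ UTR the order was the reverse, with ATTTA at 1.895 against 2.001 and GCACTT at 0.3645 against 0.389.
Genes of few exons were frequent among the strongest higher calls: 33.0% of those with a log2 of at least 1 had at most 3 exons, against 12.8% of all genes. Among genes that fell by at least 2 (log2) in WT, the share was 38.6% in those called higher with a log2 of at least 1. It was higher still, 49.7%, in those whose interaction did not pass.

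The levels of day 3 come from separate libraries, 2 of WT and 2 of KO, made from cells that had received no actinomycin D. The WT libraries of that day carry the source label E14Tg2a, so cell line and deletion cannot be told apart there. Of 15452 genes tested in both, 30.7% were higher and 32.9% lower in KO on day 3. Among genes with a higher early interaction of at least 1, 45.7% were higher and 20.8% lower (156 and 71 of 341, median 0.18). Among all genes called higher the shares were 34.9% and 30.6%, and among genes called lower 12.6% and 61.4% (median -0.31). Spata5 (0.94) and Id2 (1.41) rose on day 3. Lefty1 (-1.87), Mycn (-1.54) and Klf2 (-1.07) fell on day 3 although their mRNAs were lost less in the early interval. Cdt1 (0.13, edgeR adjusted p = 0.0605) and Pelo (0.17, edgeR adjusted p = 0.124) did not pass.

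**Figure D5:**
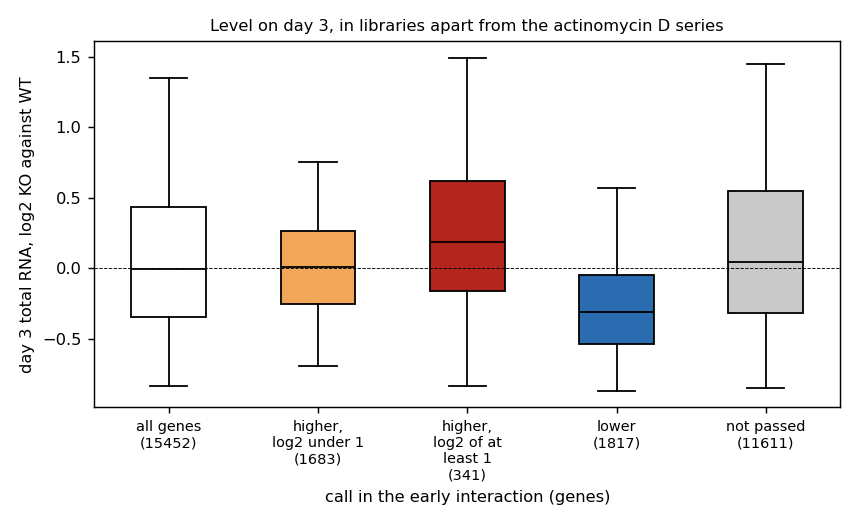
Log2 level of KO against WT in total RNA of day 3 (vertical axis) by call in the early interaction, with medians, quartiles and whiskers at the 5th and 95th percentiles over genes. The median is 0.18 for genes called higher with a log2 of at least 1 and -0.31 for genes called lower, against -0.01 for all genes.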

How the data were processed

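The deposited data were whole-number counts of reads per gene, 1 table per library. The authors made these counts with HTSeq after alignment to mm9 by STAR 2.3.0e, per the submitters' processing notes. Reads outside genes (5.34% to 7.22% in the 8 libraries) and ambiguous reads (2.32% to 2.42%) were left out. Poly(A) selection and strandedness were not stated.

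Counts were fitted with edgeR 4.0.16 in R 4.3.3 on the 8 libraries of 0 and 4 h: TMM scaling, filterByExpr by group (minimum count 10), quasi-likelihood F-tests in their robust form and Benjamini-Hochberg adjustment over all genes tested, with a threshold of 0.05. Contrasts were the interaction and the change within each arm. Standard errors were derived from the test, as the size of the log2 value divided by the square root of its F statistic. They are thus not estimated apart from the test, and n is 2 per group. Day 3 was fitted on its 4 total RNA libraries. The share left is the mean TMM-scaled CPM of a group at 4 h as a percent of that at 0 h. Shares at 8 h were computed likewise, after scaling all 12 libraries of the actinomycin D series together. With 2 replicates per group, a permutation test of a single gene cannot reach the threshold, so tests rest on a spread shared across genes. The labels call the replicates biological.

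Symbols, positions and transcripts came from GENCODE M21 (GRCm38), matched by gene ID for 32919 of 37991 IDs, and read with Python 3.11.15. Figures were drawn with matplotlib 3.10.9. The build differs from that of the counts, so positions serve as annotation. The libraries, gene lists and genes named were chosen with earlier results of these data known. The genes named are all subunits of CCR4-NOT, the 12 interactions at either end among protein-coding genes past the threshold with an average log2 CPM of at least 3 and non-overlapping changes, and up to 4 members per list of smallest adjusted p. Of these, 1 of the 12 highest and 1 list member are not reported here. Other lists, not described in the text, covered epiblast, mesoderm, neuroectoderm, 2-cell-stage, Wnt, ATF4, histone, histone-modifier, snoRNA host and microRNA pathway genes.

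In simulated data (15444 genes) planted interactions of 0.5, 1 and 2 were recovered in 48.5%, 62.1% and 83.1%, and 8.63% of calls were false, above the nominal level. Alternatives were DESeq2 1.42.0, RLE scaling, library totals, scaling to mitochondrial or to ribosomal protein mRNAs, a filter of 1 CPM or none, a replicate block, all 12 libraries, protein-coding genes alone, and each library left out, where a lone library is assumed to have the spread of the other groups.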

Additional observations from a re-analysis of the deposited data

Results flagged for a closer look

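The change over 4 h differed between WT and KO, by the test of the difference itself, in 2024 genes with a higher and 1819 with a lower interaction (edgeR). Among the genes described, 5 moved in opposite directions in the arms, each past the threshold. Utf1 fell in WT and rose in KO (0.87), while D17Wsu92e (-0.88), Cacfd1 (-0.83), Dcp2 (-0.64) and Cnot1 (-0.26) rose in WT and fell in KO. Directions are relative to the average mRNA of each library. Groups of 2 libraries are too small for a search for single libraries that stand apart.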

How the results depend on the processing

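The number of higher calls (2024) moved with the reference mRNAs used for scaling. That of lower calls (1819) moved with these, with library totals, with DESeq2 and with single libraries. With library totals 691 genes were lower (also 3299 at 0 h and 3058 at 4 h in KO against WT), and with DESeq2 907 (also 2834 higher at 0 h). The lower calls ranged from 895 to 2273 with 1 library left out, and the higher calls from 1656 to 2024. Scaled to ribosomal protein mRNAs, which shifts the median gene to 0.17, 3818 were higher and 145 lower. The WT arm then had 111 higher and 11825 lower genes, the KO arm 62 and 11160, KO against WT 10043 and 1105 at 0 h, and 11082 and 801 at 4 h. Scaled to mitochondrially encoded mRNAs, which shifts it to 0.34, 254 were higher and 0 lower. The WT arm then had 797 higher genes, the KO arm 2573 and 2036 lower, KO against WT 117 lower at 0 h, and 9552 higher and 59 lower at 4 h. That reference is 7 mRNAs whose share of counts differed between replicates (0.62% and 0.92% in KO at 0 h). Under it the sign turned for Cnot10 (0.17), Eprs (0.14), Atp5b (0.12), Cnot1 (0.12), Pkm (0.094) and Rplp0 (0.093), and for Cnot10 also with ribosomal scaling (0.0074). Higher genes were 52.7% of the calls, but 79.1% with library totals, 65% with DESeq2, 96.3% with ribosomal and 100% with mitochondrial scaling, and 62.7%, 64.1% and 64.9% without KO 0 h replicate 2, WT 0 h replicate 2 or KO 4 h replicate 1. On day 3 library totals gave 9034 higher and 2720 lower genes, DESeq2 3494 higher, and a fit with the polysome libraries 2931 and 2225. The cause was not tested, apart from the shifts that the scalings make by construction. RLE scaling, no filter, the filter of 1 CPM, all 12 libraries and protein-coding genes alone left each count over all genes within 1.5 times, though not each count within a gene list. Replicate numbers did not pair the samples: deviations of same-numbered libraries correlated between -0.199 and 0.0895, and a replicate block gave 1986 higher and 1774 lower calls. Cited2, at under 1 CPM in WT at 4 h, is limited by depth.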
